A study of Mus musculus with 6 samples.

Results

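The cortex is wrapped by the leptomeninges, the pia and arachnoid, and fibroblasts of these layers also follow the larger vessels into the tissue as perivascular cells. These fibroblasts lay down collagens and small leucine-rich proteoglycans, release growth factors such as insulin-like growth factor 2 (IGF2) and bone morphogenetic proteins (BMPs), make retinoic acid, and carry transporters that move solutes between the cerebrospinal fluid and the blood. A piece of dissected cortex can carry a thicker or thinner film of them. The 10 genes described here are *Dcn*, *Lum*, *Ogn*, *Col1a1*, *Col1a2*, *Igf2*, *Igfbp2*, *Bmp6*, *Aldh1a2* and *Slc6a13*, chosen by name as genes of meningeal and perivascular fibroblasts, out of 56923 genes in the tables. All 10 were found by symbol, all 10 had fragments in each of the 6 libraries, and all 10 passed the filter on low counts.

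RNA was measured in the prefrontal cortex of constitutive *Pla2g4e* knockout mice (KO, 3 libraries) and wild-type mice (WT, 3 libraries). *Pla2g4e* encodes a calcium-dependent phospholipase that makes N-acylphosphatidylethanolamines. Per the study's methods, the KO allele is a gene trap (C57BL/6N-A tm1Brd Pla2g4e tm2a) in which splicing to a LacZ element is predicted to give a null. The tissue was a cut of the front of the brain. The labels give no age, sex or litter for these samples and do not say whether the meninges were stripped, and they do not say that each replicate is a separate animal, so p-values measure the spread between these samples, which may in part be technical. The question of the comparison was whether the fibroblast genes differed between KO and WT cortex, and how evenly they were carried by the 6 libraries.

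Library totals ranged from 11792463 to 14594230 fragments, with 23297 to 24349 genes detected. Levels are given in CPM, the fragments of a gene per 1e6 fragments of its library, with library sizes scaled by TMM (trimmed mean of M-values). The cortical markers were present throughout, for example *Slc17a7*, the vesicular glutamate transporter of excitatory neurons, at 1161 to 1628 CPM. The targeted gene *Pla2g4e* was at 5.95, 8.12 and 7.97 CPM in KO 1 to 3 and at 7.84, 11.3 and 13.2 CPM in WT 1 to 3, so the groups overlapped and directions given here follow the labels. Its log2 fold change of KO over WT was -0.55 (unadjusted p = 0.0205, adjusted p = 0.635 in limma-voom). The sign was the same in all 17 alternative settings. *Xist* reached 1387 CPM in KO 1 and 969 CPM in WT 1. It did not exceed 0.246 CPM in the remaining 4 libraries, which carried Y-linked transcripts, so in each group replicate 1 came from another animal than replicates 2 and 3.

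The main pattern lay between libraries rather than between genotypes. WT 1 had the highest and WT 2 the lowest level of the fibroblast genes as a set, and the 3 KO libraries lay between them. Summed over the 10 genes, the level was 158, 148 and 144 CPM in KO 1 to 3, and 203, 84.7 and 133 CPM in WT 1 to 3. The WT libraries thus spanned 2.40-fold and the KO libraries 1.10-fold, with a KO mean of 149.9 ± 7.42 CPM (SD, n = 3) against a WT mean of 140.2 ± 59.5 CPM (SD, n = 3). In bulk tissue, more fibroblasts and more RNA per fibroblast cannot be told apart.

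**Figure D1:**
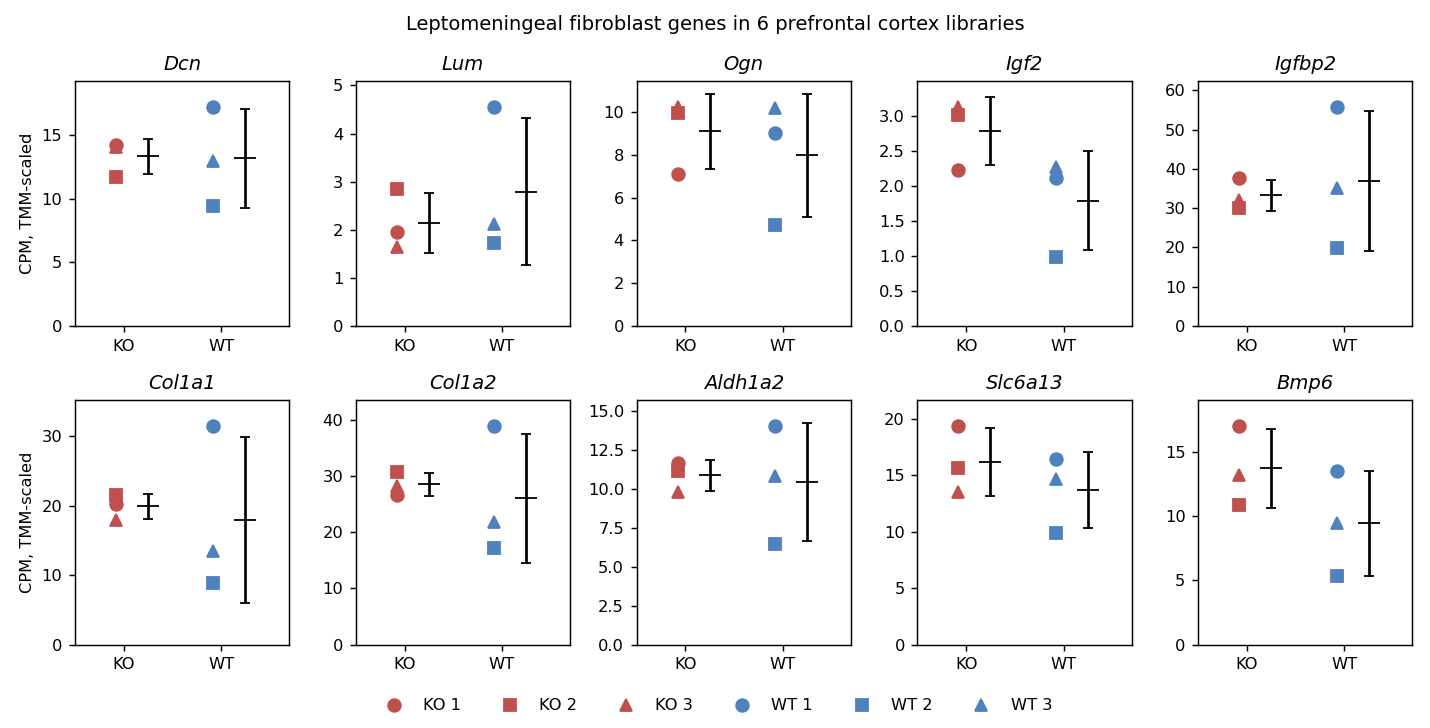
Level of each of the 10 genes in CPM (TMM-scaled, linear axis from 0) in the 3 KO (red) and 3 WT (blue) libraries, with the marker shape giving the replicate number. Black bars are the mean ± SD of 3 libraries. In 6 of the 10 panels WT 1 is the highest point and in 9 panels WT 2 is the lowest.

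Start-site sequences are shown because the 10 genes varied together across libraries although they lie on 7 chromosomes. RefSeq windows (GRCm38.p6) of 250 bases before to 50 bases after a start site were matched for 7 of the 10 genes, with 13 windows in all, as *Igf2*, *Igfbp2* and *Slc6a13* have several starts. *Dcn*, *Lum* and *Col1a1* had no entry. Short motifs were searched on both strands. They were the CCAAT box, spelled CCAAT, the TATA box, spelled TATAAA, the GC box, spelled GGGCGG, a forkhead core, spelled TGTTTAC, and the AP-1 site, spelled TGANTCA, which reads the same on both strands. In the windows below, written 5′ to 3′ on the strand of the gene, capitals mark every match to any of them. Where matches overlap, as the matches of the TATA box on opposite strands in *Ogn* do, the capitals run on.
Ogn (chr13:49607765-49608064, plus strand): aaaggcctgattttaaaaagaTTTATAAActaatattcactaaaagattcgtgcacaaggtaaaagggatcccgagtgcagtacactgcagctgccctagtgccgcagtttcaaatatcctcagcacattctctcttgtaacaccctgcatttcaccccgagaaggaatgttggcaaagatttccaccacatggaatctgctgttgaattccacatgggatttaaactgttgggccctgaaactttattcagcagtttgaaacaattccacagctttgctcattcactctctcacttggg
Col1a2 (chr6:4505368-4505667, plus strand): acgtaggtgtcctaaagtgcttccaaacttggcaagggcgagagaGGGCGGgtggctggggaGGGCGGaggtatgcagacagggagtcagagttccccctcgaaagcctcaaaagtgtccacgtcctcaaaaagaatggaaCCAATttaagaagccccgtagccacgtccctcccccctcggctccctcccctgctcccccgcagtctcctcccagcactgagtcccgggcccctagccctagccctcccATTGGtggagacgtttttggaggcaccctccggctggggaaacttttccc
Aldh1a2 (chr9:71215539-71215838, plus strand): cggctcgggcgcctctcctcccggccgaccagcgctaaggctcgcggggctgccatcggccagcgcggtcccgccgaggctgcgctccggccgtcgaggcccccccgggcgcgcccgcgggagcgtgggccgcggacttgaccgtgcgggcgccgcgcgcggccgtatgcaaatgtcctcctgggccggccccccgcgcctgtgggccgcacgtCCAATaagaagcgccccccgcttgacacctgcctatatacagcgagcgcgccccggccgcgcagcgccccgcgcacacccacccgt
Slc6a13 (chr6:121300038-121300337, plus strand, most upstream start): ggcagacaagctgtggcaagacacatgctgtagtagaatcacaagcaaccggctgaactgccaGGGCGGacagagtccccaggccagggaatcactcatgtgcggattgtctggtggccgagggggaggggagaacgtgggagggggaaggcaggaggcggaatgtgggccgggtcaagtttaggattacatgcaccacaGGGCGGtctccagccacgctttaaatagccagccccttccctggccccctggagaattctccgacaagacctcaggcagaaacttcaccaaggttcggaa
Bmp6 (chr13:38345466-38345765, plus strand): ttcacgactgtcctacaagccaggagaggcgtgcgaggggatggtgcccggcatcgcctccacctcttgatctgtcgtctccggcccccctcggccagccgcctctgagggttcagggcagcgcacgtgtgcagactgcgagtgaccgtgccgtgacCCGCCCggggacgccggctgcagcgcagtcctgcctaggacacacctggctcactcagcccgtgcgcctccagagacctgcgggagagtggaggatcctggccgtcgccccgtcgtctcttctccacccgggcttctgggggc

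No motif was common to these windows. The CCAAT box was in 5 of the 13 windows of the fibroblast genes and in 37.4% of all 32851 windows in the table, and the GC box was in 6 of the 13 and in 35.7% of all. The TATA box was in 1 of the 13 and 13.6% of all, the AP-1 site in 1 of the 13 and 7.81% of all, and the forkhead core in 0 of the 13 and 3.65% of all. The windows differed in composition, from 42.3% G and C bases in *Ogn* to 78% in *Aldh1a2*. These matches are a description of the letters and are not evidence of binding.

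The small leucine-rich proteoglycans come first. Decorin, lumican and osteoglycin are secreted proteins whose leucine-rich repeats bind collagen fibrils and set their thickness and spacing. *Dcn* (ENSMUSG00000019929.17, chromosome 10, 97315471 to 97354005, plus strand, GRCm39) was at 14.2, 11.7 and 14.1 CPM in KO 1 to 3 and at 17.2, 9.41 and 12.95 CPM in WT 1 to 3. All 3 KO values fell inside the WT range, and the log2 fold change of KO over WT was 0.06 (SE 0.18). *Lum* (ENSMUSG00000036446.6) lies on the same chromosome, from 97400990 to 97408565. It was at 1.96, 2.85 and 1.64 CPM in KO and at 4.55, 1.72 and 2.12 CPM in WT. WT 1 stood above the other 5 libraries, and KO 3 and WT 2 were lowest with 21 fragments each, a count whose exact 95% Poisson interval is 13 to 32.1. *Ogn* (ENSMUSG00000021390.7, chromosome 13, 49761522 to 49777977) was at 7.10, 9.97 and 10.2 CPM in KO and at 9.01, 4.75 and 10.2 CPM in WT. Here WT 2 was low, and KO 2, KO 3 and WT 3 were nearly level. The log2 fold changes were -0.30 (SE 0.36) for *Lum* and 0.21 (SE 0.25) for *Ogn*.

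Of the chains of type I collagen, *Col1a1* had the widest spread of the 10 genes within WT (SD 0.93 on the log2 scale), and *Col1a2*, at 0.60, was below *Igfbp2*, *Lum*, *Bmp6* and *Igf2*. *Col1a1* (ENSMUSG00000001506.11, chromosome 11, 94827050 to 94843868) encodes the alpha 1 chain and was at 20.3, 21.5 and 18.0 CPM in KO and at 31.5, 8.92 and 13.4 CPM in WT. WT 1 was 3.53-fold above WT 2, whereas the KO libraries differed by at most 1.20-fold. *Col1a2* (ENSMUSG00000029661.17, chromosome 6, 4504814 to 4541544) encodes the alpha 2 chain and was at 26.6, 30.7 and 28.4 CPM in KO and at 39.0, 17.3 and 21.9 CPM in WT. For both chains the order was WT 1 above the 3 KO libraries and those above WT 3 and WT 2. The log2 fold changes were 0.34 (SE 0.31) and 0.21 (SE 0.21). Per kb of exon, *Col1a1* was at 0.978 times the level of *Col1a2* in WT 2 and at 1.53 times in WT 1, with the other 4 libraries at 1.16 to 1.44 times.

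The growth factors and a binding protein followed. IGF2 is a fetal growth factor that in the adult brain is made mainly by leptomeninges and choroid plexus. *Igf2* (ENSMUSG00000048583.17, chromosome 7, 142204503 to 142220553, minus strand) was at 2.23, 3.02 and 3.12 CPM in KO with WT at 2.12, 0.982 and 2.28 CPM, from 12 to 40 fragments a library. KO 2 and KO 3 were above all WT libraries and KO 1 was below WT 3. Its log2 fold change was 0.67 (SE 0.33, unadjusted p = 0.0612 and adjusted p = 0.637 in limma-voom). The counting leaves out fragments that overlap exons of more than 1 gene, and 62.8% of the exon bases of *Igf2* are also exon bases of *Gm49394* on the same strand, which had 0 fragments in every library, so the level of *Igf2* rests on the remaining exon sequence. *Igfbp2* (ENSMUSG00000039323.19, chromosome 1, 72863662 to 72891633) encodes a secreted protein that binds IGFs and is also made by astrocytes. It was at 37.7, 30.1 and 32.0 CPM in KO and at 55.7, 20.0 and 35.0 CPM in WT. The WT libraries enclosed all 3 KO values, and the log2 fold change was -0.03 (SE 0.26).

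*Bmp6* (ENSMUSG00000039004.7, chromosome 13, 38529083 to 38684278) encodes a BMP ligand of the transforming growth factor beta superfamily. It was at 17.0, 10.9 and 13.2 CPM in KO and at 13.5, 5.32 and 9.50 CPM in WT. KO 1 was highest and WT 2 lowest, and WT 1 lay above both KO 2 and KO 3, so the groups overlapped. The log2 fold change of *Bmp6*, 0.62 (SE 0.26), had an unadjusted p of 0.0356 and an adjusted p of 0.635 in limma-voom. It was the only one of the 10 genes at an unadjusted p under 0.05, a level that 7.82% of all genes tested reached. That level was met by *Bmp6* in 12 of the 17 alternatives. It was missed in limma-voom without WT 2 (log2 fold change 0.27, unadjusted p = 0.220), without KO 1 (0.44, unadjusted p = 0.119) and without WT 3 (0.67, unadjusted p = 0.0627), in edgeR's quasi-likelihood test (unadjusted p = 0.0588) and in DESeq2 (unadjusted p = 0.197). The adjusted p of *Bmp6* over the alternatives ranged from 0.341 to 0.999. Its exons share 5.74% of their bases with *Txndc5* on the opposite strand, and the counting used strand.

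The last pair are an enzyme and a transporter. *Aldh1a2* encodes the retinaldehyde dehydrogenase that makes retinoic acid, and in development the meninges are a source of retinoic acid for the cortex. *Aldh1a2* (ENSMUSG00000013584.6, chromosome 9, 71123071 to 71203525) was at 11.6, 11.1 and 9.76 CPM in KO and at 14.03, 6.47 and 10.8 CPM in WT. The KO values again lay between WT 1 and WT 2, with a log2 fold change of 0.12 (SE 0.22). *Slc6a13* (ENSMUSG00000030108.15, chromosome 6, 121277186 to 121314692) encodes a transporter of gamma-aminobutyric acid (GABA) and taurine at the brain's outer barriers. It was at 19.4, 15.7 and 13.5 CPM in KO and at 16.5, 9.90 and 14.7 CPM in WT. KO 1 was highest, WT 2 lowest and the other 4 libraries were close together, with a log2 fold change of 0.27 (SE 0.18).

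Read against all genes, none of the 10 passed. Genome-wide, 0 of 19084 genes had an adjusted p under 0.05 in limma-voom (percent called 0), and 1492 genes or 7.82% had an unadjusted p under 0.05 (4.38% higher and 3.44% lower in KO). In DESeq2, 1 gene passed the adjusted threshold and 902 the unadjusted one, and in edgeR's quasi-likelihood test 0 and 1507 did. Groups without overlap were found for 0 of the 10 fibroblast genes, against 13% of all genes tested (6.72% higher and 6.29% lower in KO). Of the 10 genes, 8 had a log2 fold change above 0 and their median was 0.21, against a median of 0.01 over all genes tested. The 95% intervals of the log2 fold change reached from -0.35 to 0.46 for *Dcn*, -0.33 to 1.01 for *Col1a1* and -0.60 to 0.53 for *Igfbp2*, so changes within these intervals, in either direction, were not excluded by these libraries. A single WT library set the sign of the median. Without WT 2, 7 of the 10 genes were below 0 and the median was -0.08. In that fit *Igfbp2* was at -0.41 (unadjusted p = 0.0348, adjusted p = 0.901 in limma-voom). It was the only 1 of the 10 at an unadjusted p under 0.05, where 4.13% of all genes were. By contrast, without WT 1, all 10 were above 0 and the median was 0.39, with *Col1a1* at 0.85 (unadjusted p = 0.000481) and *Col1a2* at 0.54 (unadjusted p = 0.00130), each at an adjusted p of 0.819 in limma-voom. With *Bmp6*, 3 of the 10 were at an unadjusted p under 0.05 in that fit, where 5.38% of all genes were.

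**Figure D2:**
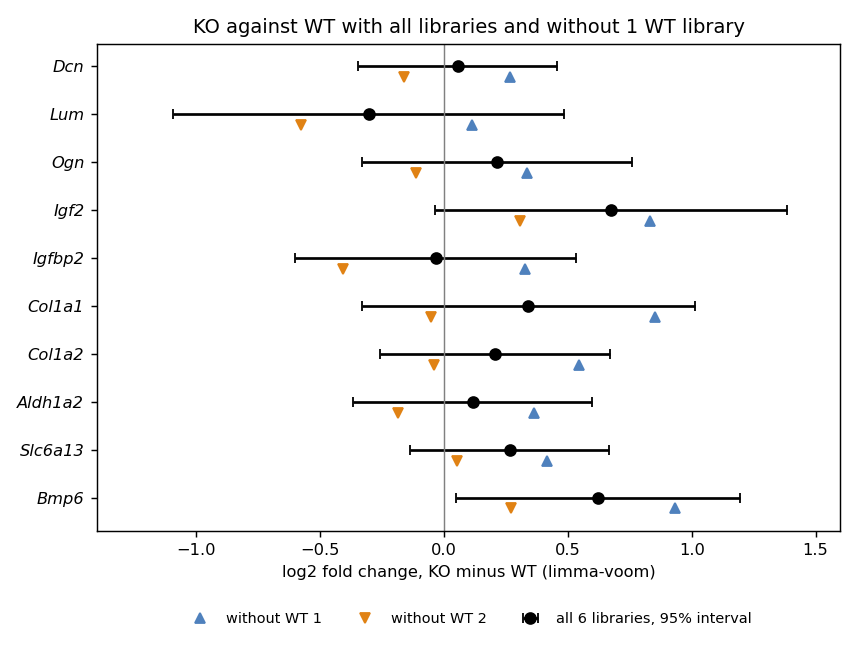
Log2 fold change of KO minus WT for each gene from limma-voom with all 6 libraries (black, with 95% interval), without WT 1 (blue) and without WT 2 (orange). Only the interval of Bmp6 (0.05 to 1.20) leaves out 0, and the fits without WT 2 all lie to the left of those without WT 1.

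The 6 libraries were also compared within those with and without Y-linked transcripts. Among KO 2, KO 3, WT 2 and WT 3, which carried them, all 10 genes were higher in KO, with a median log2 fold change of 0.41. In that fit 5 of the 10, *Col1a1*, *Col1a2*, *Bmp6*, *Igf2* and *Ogn*, were at an unadjusted p under 0.05, where 3.77% of all genes were. *Col1a1* was at 0.83 (unadjusted p = 0.000139) and *Col1a2* at 0.60 (unadjusted p = 0.000202), and the lowest adjusted p among the 10 genes was 0.514 in limma-voom. The pair KO 1 and WT 1, which allows no test, went the other way, with 3 of 10 genes higher in KO 1 and a median difference of -0.31 on the log2 scale. The direction of the set therefore differed between these subsets, each of which holds 1 of the WT extremes, so that Y-linked expression and the single WT library cannot be told apart.

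The shared pattern across libraries was then described on the log2 scale, as each gene's deviation from its mean over the 6 libraries. Averaged over the 10 genes it was -0.74 in WT 2, -0.05 in WT 3, 0.06 in KO 3, 0.13 in KO 1, 0.14 in KO 2 and 0.45 in WT 1. WT 1 was the highest library for 6 of the 10 genes and WT 2 the lowest for 9, whereas over all genes tested WT 1 was highest for 18.8% and WT 2 lowest for 18.9%. Both held at once for 5 of the 10 genes and for 3.18% of all genes. WT 1 was at least 2-fold above WT 2 for 7 of the 10 genes and for 5.42% of all genes, and the median difference between them was 1.14 for the 10 genes and -0.01 for all.

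**Figure D3:**
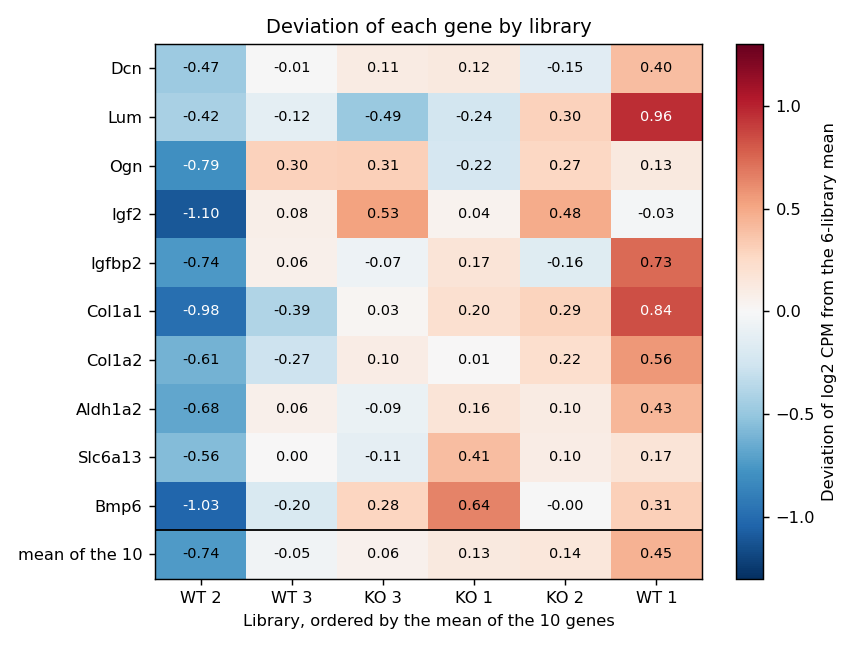
Deviation of log2 CPM from the 6-library mean (colour and printed value) for each gene (rows) in each library (columns, ordered by the mean of the 10 genes in the bottom row). The whole WT 2 column is blue, down to -1.10 for Igf2, and the WT 1 column is red except for Igf2 (-0.03).

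The genes did not follow this order equally. The standard deviation within WT was larger than that within KO for all 10 genes, with medians of 0.63 and 0.21 on the log2 scale, against 0.16 and 0.15 over all genes tested. Over the 6 libraries, every one of the 45 pairs of genes had a Pearson r above 0, with a median of 0.75 and a range of 0.19 to 0.99. These values describe the same 6 libraries and are not independent of each other. *Aldh1a2*, *Col1a1* and *Col1a2* were closest to the mean of the other 9 genes (r = 0.97, 0.94 and 0.92, n = 6 libraries), and *Lum*, *Igf2* and *Ogn* were farthest from it (r = 0.58, 0.70 and 0.70). *Bmp6* and *Slc6a13* departed through KO 1, at 0.64 and 0.41 above their means, and *Igf2*, *Ogn* and *Slc6a13* had the lowest values in WT 1, at -0.03, 0.13 and 0.17, where the other 7 were at 0.31 to 0.96.

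Per kb of exon, *Igfbp2* was highest at 18.99 ± 6.37 CPM per kb (SD over 6 libraries), followed by *Slc6a13* at 5.14 ± 1.09, *Aldh1a2* at 4.70 ± 1.10, *Ogn* at 3.33 ± 0.860, *Bmp6* at 2.97 ± 1.03, *Col1a1* at 2.89 ± 1.18, *Dcn* at 2.27 ± 0.447, *Col1a2* at 2.20 ± 0.603, *Lum* at 1.01 ± 0.451 and *Igf2* at 0.400 ± 0.135. *Igfbp2* was above *Slc6a13*, *Aldh1a2* above *Ogn* and *Col1a2* above *Lum* in 6 of 6 libraries. The place of *Igf2* depended on the exon bases used, since over the 2127 exon bases that it does not share with *Gm49394* it was at 1.08 CPM per kb, and *Lum* was then above it in 2 of 6 libraries. The other neighbours in this order changed places in at least 1 library. The exon length counts every annotated exon of a gene, so a gene with long rarely used exons is placed too low.

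Most other matrix genes of brain fibroblasts were lowest in WT 2, but those with the highest CPM, *Col6a1*, *Col5a1* and *Col6a2*, were not. Of 15 such genes, 11 were lowest in WT 2 and 4 highest in WT 1, and their mean deviation was -0.33 in WT 2 and 0.25 in WT 1. *Col3a1*, a fibrillar collagen that assembles with type I, was at 4.53, 6.37 and 4.45 CPM in KO and at 10.7, 2.46 and 2.83 CPM in WT, the same order as *Col1a1* at both ends. *Col5a1* and *Col6a2* were instead highest in WT 2, at 63.8 and 57.5 CPM. The summed level of the list ranged from 446 to 468 CPM in KO, with WT 1 to 3 at 422, 416 and 401 CPM, so that it did not follow WT 1 and WT 2. In KO against WT, 11 of the 15 were higher (8 without WT 2, and 13 without WT 1, with 8 at an unadjusted p under 0.05 where 5.38% of all genes were), and with all libraries 1 had an unadjusted p under 0.05, *Col6a1*, a chain of the microfibrillar collagen VI. *Col6a1* was at 263, 235 and 223 CPM in KO and at 187, 211 and 206 CPM in WT, without overlap (log2 fold change 0.26, SE 0.08, unadjusted p = 0.00532, adjusted p = 0.635 in limma-voom). WT 1, the highest library for the fibroblast genes, was the lowest for *Col6a1*. *Mgp*, a matrix inhibitor of calcification and the next highest of this list per kb, was at 11.2 to 15.7 CPM and was lowest in WT 2.

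In the family of *Dcn*, *Lum* and *Ogn*, 8 of 11 other small leucine-rich proteoglycans were tested and 7 were higher in KO, with a median log2 fold change of 0.22 that was 0.024 without WT 2 (5 higher). *Kera* was at 0 in every library, and *Epyc* and *Chad* were at most 0.156 CPM. *Fmod*, fibromodulin, which binds type I collagen, was at 30.7, 34.9 and 33.5 CPM in KO and at 44.1, 14.4 and 29.9 CPM in WT, again with WT 1 and WT 2 at the ends. *Prelp*, which anchors basement membranes, was at 15.1 to 23.1 CPM with WT 2 lowest. *Omd*, osteomodulin, was at 1.89, 1.84 and 1.95 CPM in KO and at 1.25, 0.737 and 0.785 CPM in WT, and *Bgn*, biglycan, the closest relative of decorin, was at 29.2, 24.4 and 22.8 CPM in KO and at 22.7, 16.0 and 20.3 CPM in WT. Their log2 fold changes were 1.04 (unadjusted p = 0.00849) and 0.38 (unadjusted p = 0.0158, and 0.0890 without WT 2) in limma-voom. For both, every KO library was above every WT library, in *Bgn* by a small margin, and each had an adjusted p of 0.635.

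Of 20 genes of leptomeningeal barrier cells and identity, 11 were lowest in WT 2 and 16 were higher in KO (13 without WT 2, with 0 at an unadjusted p under 0.05). *Ptgds*, a prostaglandin D synthase abundant in leptomeninges and oligodendrocytes, was at 656, 600 and 652 CPM in KO against 596, 332 and 578 CPM in WT, with a log2 fold change of 0.39 (SE 0.17, unadjusted p = 0.0379), and without WT 2 the unadjusted p was 0.137 in limma-voom. *Zic1*, a transcription factor of meninges and olfactory bulb, was at 49.3 CPM in KO 1 and at 15.6 to 25.9 CPM in the other 5 libraries (unadjusted p = 0.0196). *Itih2*, a heavy chain that is carried by hyaluronan, ranged from 6.11 to 8.85 CPM in KO and from 3.52 to 6.43 CPM in WT (unadjusted p = 0.0360). Without WT 2 these were 0.0876 and 0.199 in limma-voom. In the covariate fit for Y-linked expression *Zic1* passed the adjusted threshold (log2 fold change 0.69, adjusted p = 0.0284 in limma-voom), as no other gene of the 8 lists described here did in any setting. *Zic1* was highest in KO 1 and lowest in WT 2, as were the olfactory bulb markers described below. In the same fit all 8 of those markers had an unadjusted p under 0.05. *Ccn3*, a secreted matricellular protein and the second highest of the list per kb, did not follow the fibroblast genes. It ranged from 119 to 145 CPM in KO and from 132 to 146 CPM in WT, lowest in KO 1 and at 143 CPM in WT 2 (log2 fold change -0.11).

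Among 18 enzymes and chaperones of procollagen, 12 were higher and 6 lower in KO, with a median log2 fold change of 0.03. Without WT 2, 8 were higher and 10 lower. *P4ha2*, a prolyl hydroxylase subunit, ranged from 20.6 to 26.2 CPM in KO and from 18.5 to 19.4 CPM in WT, with an unadjusted p of 0.0180 in limma-voom. *Plod2*, a lysyl hydroxylase, ranged from 10.1 to 14.7 and from 8.32 to 8.86 CPM (unadjusted p = 0.0195), and *Bmp1*, the procollagen C-proteinase, from 112 to 117 and from 85.1 to 112 CPM (unadjusted p = 0.0339, and 0.0576 without WT 2). *P4ha2* and *Plod2* did not overlap between groups. The most abundant per kb, the folding enzymes *Ppib* and *P4hb*, were at 116 to 132 CPM and 76.9 to 92.8 CPM and are used by every cell. *Serpinh1*, the collagen chaperone, ranged from 13.4 to 21.1 CPM in KO and from 12.4 to 20.5 CPM in WT.

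Around *Igf2* and *Igfbp2*, 13 of 14 genes of the IGF axis were tested, and 8 were higher and 5 lower in KO (6 and 7 without KO 1). Of the receptors, *Igf1r* was at 93.7 to 110 CPM and overlapped between groups. *Igf2r*, which clears IGF2, ranged from 48.3 to 51.0 CPM in KO and from 41.8 to 47.5 CPM in WT, and *Insr*, the insulin receptor, from 77.9 to 83.6 and from 71.1 to 75.2 CPM, both without overlap (log2 fold changes 0.16 and 0.13, unadjusted p = 0.0661 and 0.0730 in limma-voom). Of the binding proteins, *Igfbp4* was at 53.1, 52.7 and 70.1 CPM in KO with WT at 74.0, 92.0 and 57.8 CPM (log2 fold change -0.33, unadjusted p = 0.0466, and 0.236 without WT 2, in limma-voom). *Igfbp6* and *Igfbp5*, the highest of the list per kb, were at 31 to 44.7 CPM and 148 to 186 CPM. *H19*, the maternally expressed neighbour of *Igf2*, had at most 8 fragments in a library.

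Of the 17 genes of retinoic acid handling around *Aldh1a2*, 16 were tested, with 9 higher and 7 lower in KO (6 and 10 without WT 2). *Aldh1a1*, another retinaldehyde dehydrogenase, was at 29.0, 33.3 and 26.7 CPM in KO and at 25.2, 18.3 and 21.0 CPM in WT, without overlap (log2 fold change 0.46, SE 0.12, unadjusted p = 0.00285). *Crabp1*, a cellular retinoic acid binding protein, was under 1 CPM in every library (unadjusted p = 0.0263, and 0.0841 without WT 2). *Rbp4*, the retinol carrier, ranged from 7.54 to 7.91 CPM in KO and from 9.17 to 11.4 CPM in WT (log2 fold change -0.37, unadjusted p = 0.0213). Each had an adjusted p of 0.635 in limma-voom. *Rxrb*, the most abundant receptor gene of the list per kb, was at 51.8 to 57.1 CPM.

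In the BMP pathway around *Bmp6*, 25 of 26 genes were tested and 20 were higher in KO (16 without WT 2). The other ligand at an unadjusted p under 0.05 was *Bmp7*, a meningeal BMP, at 19.3, 16.1 and 15.4 CPM in KO and at 12.3, 8.59 and 13.7 CPM in WT, without overlap (log2 fold change 0.58, SE 0.16, unadjusted p = 0.00409, adjusted p = 0.635 in limma-voom). The receptor gene *Acvr2b* ranged from 8.21 to 10.9 CPM in KO and from 5.17 to 8.63 CPM in WT (unadjusted p = 0.0267, and 0.0527 without WT 2). *Smad5*, which carries BMP signals to the nucleus, ranged from 34.2 to 42.7 and from 25.7 to 34.2 CPM (unadjusted p = 0.0203, and 0.115 without WT 2). Of the target genes, *Id2* ranged from 88.8 to 98.7 CPM and *Id4* from 62.8 to 77.7 CPM over the 6 libraries, while *Id1* and *Id3* spanned 1.39-fold and 1.37-fold, *Smad6* 1.77-fold and *Bambi* 3.01-fold. *Hamp*, the hepatic target of BMP6, was at 0 in every library.

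The 6 relatives of *Slc6a13* among GABA, taurine and creatine carriers were all higher in KO by small amounts, with a median log2 fold change of 0.06, and none had an unadjusted p under 0.05. Without KO 1, 3 were higher and 3 lower, and without WT 2, 4 and 2. *Slc6a11*, a GABA transporter of astrocytes, was at 270 CPM in KO 1 and 119 to 181 CPM in the other libraries. Over these 8 lists together, 16 of 121 genes tested (13.2%) had an unadjusted p under 0.05, against 7.82% of all genes, with 14 higher and 2 lower in KO, and 0 passed the adjusted threshold with all 6 libraries and no covariate. Groups without overlap were found for 13 of the 121 (10.7%), against 13% of all. Without WT 2 the number at an unadjusted p under 0.05 was 10, of which 7 were among the 16 and 3 were other genes. In that fit 4.13% of all genes were at that level. All 16 kept their sign under the 17 alternatives. They were picked by the main fit and the alternatives use the same counts, so this is not separate support.

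Markers of other cells at the brain surface and in vessels were read in the same libraries. The 9 markers of border-associated macrophages, which live beside the fibroblasts, had a mean deviation of -0.74 in WT 2, 0.43 in WT 1, 0.24 in WT 3 and -0.17 to 0.19 in KO, and their summed level was 14.3 to 17.7 CPM in KO and 9.25 to 20.9 CPM in WT. *Mrc1*, the most abundant of them, was at 3.68 CPM in WT 2 and 8.08 CPM in WT 3. The mean deviation of the 10 endothelial markers stayed between -0.09 and 0.11 and that of the 10 mural cell markers between -0.20 and 0.13, with WT 2 lowest in both. *Slc2a1*, the glucose transporter of the blood-brain barrier, was at 63.2 to 122 CPM and *Rgs5*, a pericyte gene, at 94.5 to 110 CPM. The part of these cells in the values of the fibroblast genes was not tested.

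Choroid plexus also makes *Igf2* and was read by 12 markers, 8 of them tested. *Ttr*, the transthyretin gene that defines this epithelium, was at 26.8 CPM in WT 2 and at 0.251 to 2.12 CPM in the other 5 libraries. It was at 0.541, 0.251 and 0.625 CPM in KO and at 1.72 and 2.12 CPM in WT 1 and WT 3, so the groups did not overlap. The log2 fold change was -3.22 (SE 1.55, unadjusted p = 0.0587, adjusted p = 0.637 in limma-voom). WT 2 was thus the highest library for *Ttr* and the lowest for *Igf2*, and the list split in the same library. *Kl*, *Clic6*, *Prlr* and *Otx2* were also highest in WT 2, whereas *Aqp1*, *Trpm3* and *Kcnj13* were lowest there, and the mean deviation of the 8 was 0.78 in WT 2, where that of the fibroblast genes was -0.74. *Folr1*, *Kcne2* and *Sostdc1* were under 0.3 CPM in every library. The summed level of the list was 62.9 to 97.9 CPM in KO and 62.3 to 81.2 CPM in WT, most of it *Trpm3*, which neurons also express. In KO against WT, 5 of the 8 were higher and 3, with *Ttr*, lower, with a median log2 fold change of 0.05. Of the 8, 1 was higher at an unadjusted p under 0.05 in limma-voom, against 4.38% of all genes. The median was 0.26 without WT 2 (4 of 7 higher), -0.24 without WT 1 (2 of 8 higher) and -0.13 in edgeR's quasi-likelihood test (3 of 8 higher).

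Because the dissection cuts the front of the brain, 8 olfactory bulb markers were read as well. Their summed level was 285, 79.6 and 51.3 CPM in KO 1 to 3 and 78.3, 18.4 and 50.5 CPM in WT 1 to 3. All 8 were higher in KO, with a median log2 fold change of 1.32 and 3 at an unadjusted p under 0.05. Of all genes, 4.38% were higher in KO at that level. The median was 0.59 without KO 1 (7 of 8 higher) and 0.73 without WT 2, each with 0 at that level. Without KO 3 it was 1.81, with 7 at that level, where 8.05% of all genes were. All 8 were at that level with the replicate block (8.87% of all genes) and with the Y-linked covariate (10.6%). KO 1 was highest and WT 2 lowest for *Cdhr1*, a mitral cell cadherin, at 112 and 9.25 CPM. WT 2 was thus low and KO 1 high for these markers and for *Bmp6*, *Slc6a13* and *Zic1*. WT 1, the highest library for the fibroblast genes, was within the KO range for the olfactory markers. The part of olfactory bulb tissue in the values of *Bmp6*, *Slc6a13* and *Zic1* was not tested.

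**Figure D4:**
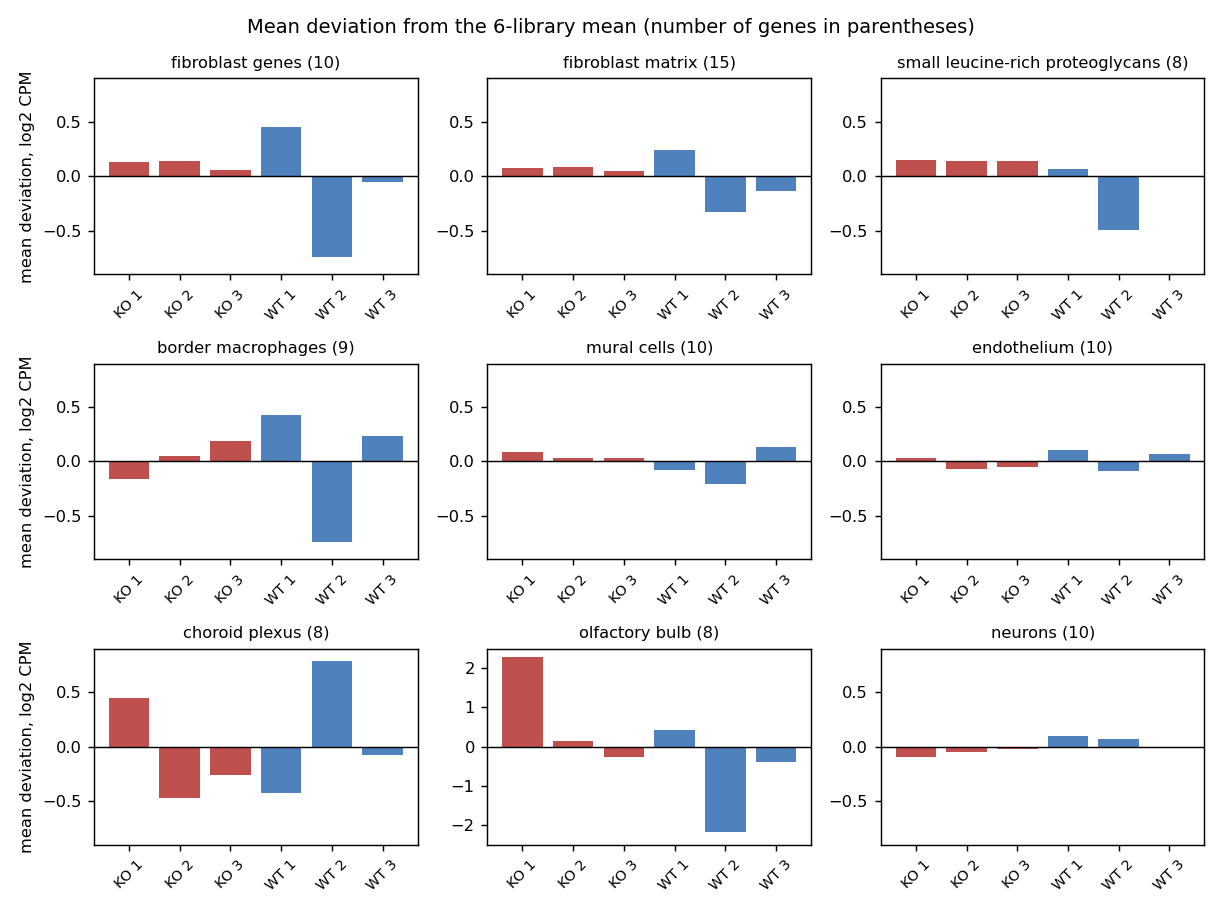
Mean deviation of log2 CPM from the 6-library mean for the 10 fibroblast genes and 8 other lists (number of genes tested in parentheses) in KO (red) and WT (blue) libraries, with a wider axis for the olfactory bulb. The fibroblast and macrophage panels share the low WT 2 bar at -0.74, the endothelial bars lie between -0.09 and 0.11, and KO 1 stands out at 2.28 in the olfactory panel.

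The genes most like the mean of the 10 across the 6 libraries were sought among 15244 other genes with a mean of at least 1 CPM. The 10 nearest were *Lepr*, *Gm26532*, *Mdfic*, *Tmem168*, *Aebp1*, *Fmod*, *Asf1a*, *Metrn*, *Fastkd2* and *Slc25a3*, with Pearson r of 0.978 to 0.997 over 6 libraries. With so many genes and 6 libraries these values are a ranking and carry no test. They differed in amplitude. *Aebp1*, which encodes a secreted collagen-binding protein, was at 33.9, 36.9 and 34.5 CPM in KO and at 45.1, 13.997 and 29.7 CPM in WT, and *Lepr*, the leptin receptor, was at 6.29, 6.28 and 6.17 CPM in KO and at 8.39, 3.27 and 5.73 CPM in WT. *Slc25a3*, the mitochondrial phosphate carrier, stayed between 252 and 287 CPM. Gene by gene, the 3 nearest were *Nr1h3*, *Kcnq1* and *Exoc3l4* for *Dcn*, *Psma1*, *Gsr* and *Zfp979* for *Lum*, *Foxn2*, *Mad2l1* and *Pkn3* for *Ogn*, *Cryl1*, *Uaca* and *Mycn* for *Igf2*, and *Gbp2*, *Larp7* and *Lrp10* for *Igfbp2*. They were *Slc25a3*, *Msn* and *Jrkl* for *Col1a1*, *Tbc1d8b*, *Msn* and *Slc25a3* for *Col1a2*, *Smarcd3*, *D930019O06Rik* and *Naip2* for *Aldh1a2*, *Shisa3*, *Ms4a15* and *Fam107b* for *Slc6a13*, and *4930451G09Rik*, *Papss2* and *Gm37570* for *Bmp6*. *Ms4a15*, nearest but one to *Slc6a13*, was at 18.9 CPM in KO 1 and at 0 in WT 2, the libraries at the ends of the olfactory markers.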

How the data were processed

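Polyadenylated RNA of 3 KO and 3 WT samples had been made into stranded libraries. Groups and replicate numbers were taken from the sample titles. The deposited values are raw counts of fragments per gene, 1 table per sample. Per the labels and file headers, the authors aligned reads with STAR 2.7.9a and counted fragments over exons with featureCounts 1.6.0, paired-end and reverse-stranded, on GENCODE M31 (GRCm39). No normalization had been applied and replicates were not pooled. The study's methods section gives mm10 and Gencode M18 instead. Coordinates are those of the files, except for the RefSeq windows (GRCm38.p6).

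Of 56923 genes, 52073 matched a symbol. As in the study's methods, genes with at least 6 fragments in at least 1 library (19084) were kept, and edgeR, voom and limma were used. The scaling was TMM (edgeR 4.0.16), where the methods name edgeR but no scaling. Tests were by voom and limma 3.58.1 (R 4.3.3), two-sided and without covariates. P-values were adjusted by Benjamini-Hochberg across every gene kept, and 0.05 was the threshold. Levels are CPM after TMM scaling, and deviations are of log2 CPM with 0.5 fragments added. Depth was 11792463 to 14594230 fragments. Poisson intervals cover counting error only, as fragments carry no molecular identifiers. The code was tested on simulated data.

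Named were the 10 genes and *Pla2g4e*, in each pathway list the genes at an unadjusted p under 0.05 (at most 4) and the 2 highest per kb, in each cell type list the most abundant gene, and the nearest genes by Pearson r. A gene that the rule would name is not reported here. *Col3a1*, *Col5a1*, *Col6a2*, *Serpinh1*, *Igf1r*, *Igf2r*, *Insr*, *H19*, *Id1*, *Id3*, *Smad6*, *Bambi* and single markers of other cells were named after their values were seen. The members and all lists were chosen with earlier results of these data known. Lists are described by counts and medians without a set test. The alternatives were edgeR's quasi-likelihood test, DESeq2 1.42.0, 3 other scalings, 2 other filters, weights for sample quality, a block for the replicate number, a Y-linked covariate, the libraries with Y-linked transcripts alone and leaving out each library.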

Additional observations from a re-analysis of the deposited data

How the results depend on the processing

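No setting called any of the 10 genes at the adjusted threshold. *Igf2*, *Slc6a13* and *Bmp6* kept their direction in all 17 alternatives. Other than in leave-one-out fits, *Igfbp2* changed sign to 0.037 with sample quality weights and to 0.22 among the libraries with Y-linked expression alone, and *Lum* to 0.16 among those libraries. When each library was left out in turn, the log2 fold change ranged from -0.16 to 0.27 for *Dcn*, -0.58 to 0.11 for *Lum*, -0.11 to 0.42 for *Ogn*, 0.31 to 0.88 for *Igf2*, -0.41 to 0.33 for *Igfbp2*, -0.051 to 0.85 for *Col1a1*, -0.041 to 0.54 for *Col1a2*, -0.19 to 0.36 for *Aldh1a2*, 0.05 to 0.41 for *Slc6a13* and 0.27 to 0.93 for *Bmp6*. The lowest value came without WT 2 for each gene, and the highest without WT 1 for 8 of them and without WT 3 for *Ogn* and *Igf2*. The log2 ratio of the summed level was 0.10, and from -0.16 (without WT 2) to 0.46 (without WT 1).

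Over all genes, the number past the adjusted threshold was 0 in limma-voom, 1 with DESeq2, 24 with the Y-linked covariate, 3 among the libraries with Y-linked expression and 0 to 1 when single libraries were left out. The cause was not tested. At an unadjusted p under 0.05 the 1492 genes became 902 with DESeq2, 696 among the libraries with Y-linked expression, and 782 (without WT 2) to 2239 (without WT 3) when single libraries were left out. The number of genes of the pathway lists at an unadjusted p under 0.05 was 16, and 10 to 22 when single libraries were left out. Library totals alone moved the median log2 fold change of all genes to 0.03.

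Same-numbered samples of the 2 groups correlated in their deviations at 0.23, 0.05 and -0.01. With so few samples, these values cannot decide whether a shared number marks a pairing. With the replicate block, 0 genes passed the adjusted threshold, the median log2 fold change of the 10 genes was 0.15 and *Bmp6* was at 0.54 (unadjusted p = 0.00306, adjusted p = 0.366 in limma-voom). Depth limits *Igf2* and *Lum* most, with 12 and 21 fragments in their lowest library.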

Other observations

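Glial markers were not even across the libraries that differed in fibroblast genes. *Gfap*, the intermediate filament of reactive, subpial and white matter astrocytes, was at 189, 118 and 109 CPM in KO 1 to 3 and at 329, 62.3 and 72.6 CPM in WT 1 to 3, so that WT 1 was highest and WT 2 lowest, as for the fibroblast genes. The 10 astrocyte markers together were ordered otherwise, with a mean deviation of 0.28 in KO 1, 0.16 in WT 1, 0.03 in KO 3, -0.07 in KO 2, -0.18 in WT 3 and -0.22 in WT 2. In KO against WT, all 10 were higher in KO with a median log2 fold change of 0.09, and 1, *Agt*, had an unadjusted p under 0.05 (0.0181 in limma-voom). Without KO 1, and likewise without WT 2, 5 were higher and 5 lower. *Slc1a2*, the most abundant of them, stayed at 3018 to 3455 CPM.

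Other lists had other orders. The 8 ependymal markers, 7 of them tested, were low throughout, with a summed level of 6.43 to 9.89 CPM, *Foxj1* as the most abundant at 2.59 to 3.67 CPM, and no steady direction (median log2 fold change -0.33, 0.11 without KO 3 and 0.047 without WT 3). Blood cell markers were highest in KO 3 (61.9 CPM) and WT 2 (59.4 CPM) and lowest in KO 1 (35.8 CPM), with *Hbb-bs* at 26.4 to 44.0 CPM. Striatal neuron markers were highest in KO 2 (460 CPM) and WT 3 (435 CPM) and lowest in WT 1 (262 CPM), and *Pde10a* was at 79.3 to 128 CPM. All 10 of them were higher in KO, with a median log2 fold change of 0.27 and 1 at an unadjusted p under 0.05. The median was 0.11 without KO 2 (8 higher), 0.16 without WT 1 (7 higher) and 0.60 without WT 3 (5 at that level, where 11.8% of all genes were). The mean deviation of the 10 neuron markers stayed between -0.10 and 0.10, and 8 of them were lower in KO, with a median log2 fold change of -0.16 (-0.069 without KO 1, and -0.091 without WT 2 with 6 lower). Of the 10, 3 were lower at an unadjusted p under 0.05, against 3.44% of all genes, among them *Snap25* (0.0351) and *Neurod6* (0.00348 in limma-voom). For 2 of the 10, every KO library was below every WT library, against 6.29% of all genes tested. The most abundant, *Camk2a*, was at 3545 to 4338 CPM.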
